A study of Bos taurus with 60 samples.

Results

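RHOA, ACTG1, ILK and FILIP1 code for a switch, a building block, an anchor and a regulator of the actin cytoskeleton, and their transcripts were followed in the bovine mammary gland from late lactation into the dry period. The 4 genes were chosen by name, with earlier results of these data known, and their p-values do not allow for that choice. They were matched to loci of the deposited counts through the symbol and locus columns of the study's supplementary tables, which gave 4 of 25223 loci. All 4 were among the 14714 loci with at least 1 CPM (counts scaled to a common library total) in at least 6 of the 60 samples, which were the loci tested. Their identifiers were ENSBTAG00000004279 for RHOA, ENSBTAG00000000696 for ILK and ENSBTAG00000000053 for FILIP1. The ACTG1 locus joined 2 ENSEMBL genes, ENSBTAG00000006189 and ENSBTAG00000047677, whose reads could not be divided.

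The samples were mammary biopsies of 12 multiparous Holstein cows in late gestation, taken from each cow 3 days before milking stopped (D-3) and on days 3, 7, 14 and 25 after it (D3, D7, D14 and D25). From that day, called dry-off, 6 cows had shade only (heat-stressed, HT) and 6 had shade with fans and soakers (cooled, CL), each group in a pen of its own, so that treatment and pen cannot be told apart. Sampling at D-3 was before the treatments began. Biopsies alternated between the glands of the udder, were trimmed of visible fat and hold all cell types of the tissue, and a change in the number of cells of a type cannot be told apart from a change in the RNA of each cell.

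RHOA is a small GTPase that cycles between a GTP-bound active and a GDP-bound inactive form, and in its active form drives, through ROCK kinases and formins, the bundling of actin into contractile stress fibres. ACTG1 is cytoplasmic gamma-actin, which with beta-actin (ACTB) forms the filaments of nonmuscle cells. ILK, the integrin-linked kinase, is a scaffold that joins the tails of beta-integrins to actin through PINCH (LIMS) and parvin proteins. FILIP1 binds filamin A, the crosslinker of actin networks, and is known for lowering the amount of filamin in migrating cells. In the mammary gland, integrin adhesion holds the secretory epithelium on its basement membrane, and actomyosin contraction of myoepithelial cells ejects milk.

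Total counts per sample lay between 20525083 and 26183990. Loci of 3 milk genes (CSN1S1, CSN2 and LALBA) took between 0.19% and 49.8% of a D-3 sample (median 4.75%), and the trimmed mean of M-values (TMM) factors that set the scale of CPM here ranged from 0.3 to 1.21. The D14 sample of CL cow 7965 stood apart from its time point: its log2 profile correlated at r = 0.849 with the mean of the other 11 cows at D14, and its luminal epithelial keratins KRT7 and KRT19 summed to 6.19 CPM against 511 to 2378 in the others. The D14 and D25 samples of HT cow 8513 resembled the earlier samples of HT cow 8660 (mean r = 0.510) more than those of cow 8513 itself (-0.102), and those of cow 8660 resembled the earlier samples of cow 8513 (0.367) more than its own (0.120), so that these labels may be exchanged. Both cows were HT, which leaves HT vs. CL levels as they are.

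RHOA rose from D-3 to D3 and fell from D3 to D7. Its level at D-3 was lowest at 318 CPM, with a median of 431 and a highest value of 579. At D3 the lowest was 415, the median 511 and the highest 828 CPM, and at D7 the values ran from 355 over 431 to 545 CPM. The highest cows at D3 were HT cow 8713 and CL cow 8564, and the ranges of the days overlapped. The rise was 0.44 on the log2 scale (SE 0.10, 1.35-fold, FDR = 0.00216 by edgeR's quasi-likelihood F-test) and the later change -0.40 (SE 0.10, FDR = 0.0209). Within cows, RHOA was higher at D3 than at D-3 in 9 of 12 (mean 0.41 ± 0.39, SD; exact sign-flip p = 0.00586) and lower at D7 than at D3 in 10 of 12 (mean -0.37 ± 0.30, exact p = 0.00293). The change from D3 to D7 was past the threshold only with all of 3 cows in the fit: without cow 8564 its FDR was 0.0955, without cow 8647 0.0690 and without cow 8660 0.0511. Of all tested loci, 15.1% were called between D-3 and D3 and 2.92% between D3 and D7, at an FDR of at most 0.05.

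ACTG1 had the largest rise of the 4 from D-3 to D3. At D-3 its lowest level was 853 CPM, its median 1387 and its highest 2318 CPM. At D3 these were 1290, 2412 and 5416 CPM, and at D7 1186, 1607 and 2422 CPM. Cow 8564 went from the lowest level of all at D-3 to the highest at D3, while HT cow 8668 and CL cow 8686 were the only cows with a lower level at D3 than at D-3. The rise to D3 was 0.82 (SE 0.16, 1.77-fold, FDR = 3.15e-04, edgeR) and was called without any 1 of the 12 cows. The fall to D7 was -0.57 (SE 0.16, FDR = 0.0367), and its FDR lay over the threshold without any 1 of 7 cows, up to 0.183 without cow 8564. In single cows ACTG1 was higher at D3 in 10 of 12 (mean 0.80 ± 0.87, exact p = 0.00635) and lower at D7 in 10 of 12 (mean -0.49 ± 0.58, exact p = 0.0103). Reads were counted only where they mapped to 1 place, and since ACTG1 and ACTB have near-identical coding sequences, reads from their coding parts may be missing or divided between them. ACTB behaved in the same way, with a rise of 0.65 (SE 0.15, FDR = 0.00181), and the count ratio of ACTG1 to ACTB changed by 0.19 ± 0.30 within cows (8 of 12 up, exact p = 0.0562, adjusted p = 0.118 over 32 ratio tests).

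ILK fell from D3 to D7, and its difference between D-3 and D3 stood at the edge of the threshold. Its lowest, median and highest levels were 46.4, 83.2 and 127 CPM at D-3, 56.7, 104 and 209 CPM at D3, and 64.9, 72.0 and 95.7 CPM at D7. The spread was wide at D3, where cow 8564 was again highest, and narrow at D7 (CV 37.9% and 13.3%). From D-3 to D3 the difference was 0.38 (SE 0.15, FDR = 0.0750, edgeR), which was not called. With the cow as a block its FDR was 0.0374, and without cow 7965 it was 0.0373 and without cow 8686 0.0431. ILK was higher at D3 in 8 of 12 cows (mean 0.34 ± 0.54, exact sign-flip p = 0.0498). The fall to D7 was -0.57 (SE 0.15, FDR = 0.0226) and was present in 11 of 12 cows (mean -0.49 ± 0.49, exact p = 0.00342), the exception being HT cow 8668. That call was lost without cow 8541 (FDR = 0.0685), 8564 (0.133), 8647 (0.0690) or 8713 (0.0506).

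FILIP1 went the other way. Its lowest, median and highest levels were 17.4, 33.0 and 47.0 CPM at D-3, 9.40, 21.1 and 30.1 CPM at D3 and 16.4, 24.9 and 38.1 CPM at D7. The counts behind these values were the smallest of the 4 genes, from 188 to 1341 per sample over all days. At D3 cow 8660 was lowest and no cow lay above 30.1 CPM, a level that 7 of the 12 exceeded at D-3. The fall was -0.58 (SE 0.17, 0.670-fold, FDR = 0.0164, edgeR), and 11 of 12 cows showed it (mean -0.56 ± 0.36, exact sign-flip p = 9.77e-04, where 4.88e-04 is the smallest possible), with cow 8513 at 0.04 as the exception. Without cow 8647 the FDR was 0.0615. From D3 to D7 FILIP1 differed by 0.28 (SE 0.17, FDR = 0.431), which was not called, although 10 of 12 cows were higher at D7 (exact p = 0.0786), and 10 of 11 without cow 7965 (mean 0.37 ± 0.46, exact p = 0.0146). That cow had the lowest change of the 12 (-0.63), and its D3 and D7 samples did not stand apart (r = 0.968 and 0.975 with the mean of the other 11). The exact test was not run without each other cow. In edgeR the FDR lay between 0.217 and 0.714 without each cow in turn.

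**Figure D1:**
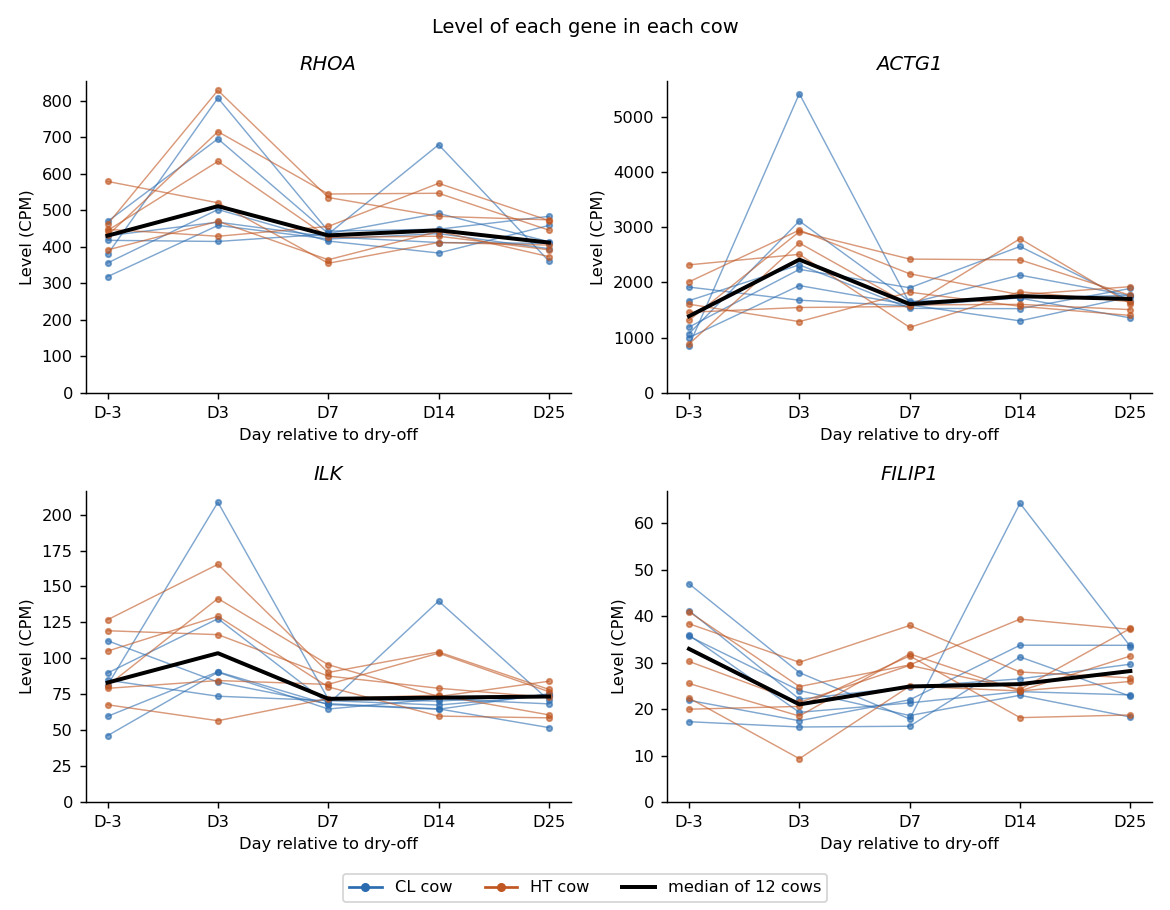
Level of RHOA, ACTG1, ILK and FILIP1 in CPM (vertical axis, from 0) on the 5 sampling days (horizontal axis, evenly spaced), with 1 thin line per cow (blue CL, orange HT) and the median of 12 cows in black. The medians of RHOA, ACTG1 and ILK were highest at D3 (511, 2412 and 104 CPM) and that of FILIP1 was lowest there (21.1 CPM).

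**Figure D2:**
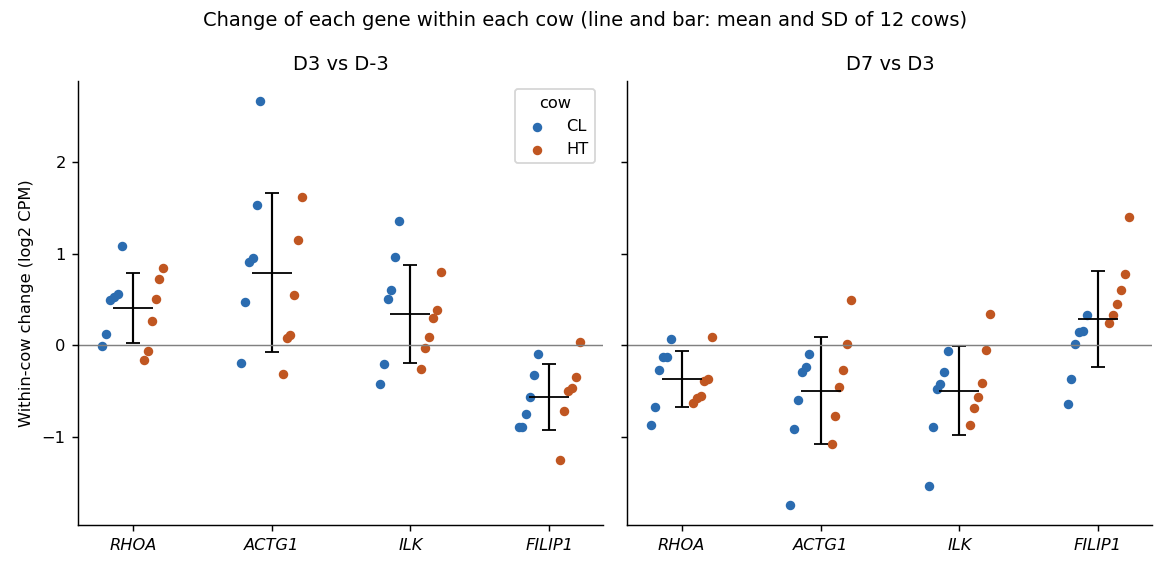
Change of each gene within each of the 12 cows on the log2 CPM scale, from D-3 to D3 (left) and from D3 to D7 (right), CL cows blue and HT cows orange, with the mean and SD in black. FILIP1 was lower at D3 in 11 of 12 cows, while RHOA was higher in 9, ACTG1 in 10 and ILK in 8.

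In the order of their medians the days stood as D3, D14, D7, D-3 and D25 for RHOA, as D3, D14, D25, D7 and D-3 for ACTG1, as D3, D-3, D25, D14 and D7 for ILK, and as D-3, D25, D14, D7 and D3 for FILIP1. Neighbours in each order lay closer together than the larger of their SDs across cows.

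After D7 none of the 4 genes was called between neighbouring days. The medians at D14 and D25 were 445 and 412 CPM for RHOA, 1749 and 1701 for ACTG1, 72.8 and 73.6 for ILK, and 25.4 and 28.2 CPM for FILIP1. From D7 to D14 the differences were 0.13 for RHOA, 0.16 for ACTG1, 0.08 for ILK and 0.23 for FILIP1, with unadjusted p from 0.178 to 0.576 in edgeR, where 0 of 14714 loci were called (257 had an unadjusted p under 0.05, and DESeq2 called 0). From D14 to D25 they were -0.17, -0.20, -0.20 and -0.09 for the same genes, and 0.0612% of loci were called. RHOA was lower at D25 than at D14 in 10 of 12 cows (mean -0.16 ± 0.29, exact p = 0.0493), and in 9 of 11 with exact p = 0.0986 once cow 7965 was left out. That cow's D14 sample held the highest RHOA, ILK and FILIP1 of the day, at 679, 140 and 64.3 CPM against at most 574, 105 and 39.4 CPM in the other 11. Against D-3, no member was called at D7 (8.46% of loci were) or at D25 (13.1% were): at D25 the differences from D-3 were -0.01 for RHOA, 0.21 for ACTG1, -0.31 for ILK (unadjusted p = 0.0387, FDR = 0.153) and -0.15 for FILIP1.

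The scale of CPM bears on these changes, since milk transcripts took a large part of some D-3 samples. On library size alone, without TMM factors, the median log2 change of all tested loci from D-3 to D3 was 0.349 in place of -0.01. On that scale RHOA rose by 0.78 (FDR = 0.00228, edgeR) and ILK by 0.80 (FDR = 0.00130), ACTG1 was called as well (FDR = 0.00530), and FILIP1 stood at -0.16 (FDR = 0.561), with 6 of 12 cows higher and a mean within-cow change of 0.00. From D3 to D7 none of the 4 was called on library size alone (FDR 0.327 to 0.906), although the exact within-cow p remained 0.00391 for RHOA, 0.0132 for ACTG1 and 0.00146 for ILK. Against D-3, RHOA and ACTG1 at D25 were then called as higher, by 0.51 (FDR = 0.0233) and 0.58 (FDR = 0.0471), where the median change of all loci was 0.483.

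Ratios of counts within a library are free of any scaling, and they separated FILIP1 from the others. There were 0.0768 FILIP1 counts per RHOA count at D-3 in the median cow (range 0.0346 to 0.113), 0.0375 at D3 (0.0149 to 0.0703) and 0.0556 at D7 (0.0389 to 0.0888). FILIP1 lost ground to RHOA by -0.97 ± 0.54 (log2, SD) from D-3 to D3 in 11 of 12 cows (exact sign-flip p = 9.77e-04, adjusted p = 0.00781 over 32 tests), and from D3 to D7 the ratio changed by 0.66 ± 0.74, upward in 10 of 12 cows (exact p = 0.0103, adjusted p = 0.0547), which did not pass after adjustment. Against ILK it changed by -0.90 ± 0.63 in 11 of 12 cows (adjusted p = 0.00781, exact test) and recovered by 0.78 ± 0.77 from D3 to D7 in 10 of 12 (adjusted p = 0.0438). Against FLNA, which codes for its binding partner filamin A, FILIP1 changed by -1.03 ± 0.77 in 11 of 12 cows from D-3 to D3 and by 0.75 ± 0.59 in all 12 cows from D3 to D7 (adjusted p = 0.00781 for both, exact tests). The ratios among RHOA, ACTG1 and ILK moved less: ACTG1 to RHOA by 0.39 ± 0.58 (exact p = 0.0425, adjusted p = 0.116), ILK to RHOA by -0.07 ± 0.31 (adjusted p = 0.542) and ILK to ACTG1 by -0.46 ± 0.64 (adjusted p = 0.116) from D-3 to D3, none past 0.05 after adjustment of the exact tests.

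**Figure D3:**
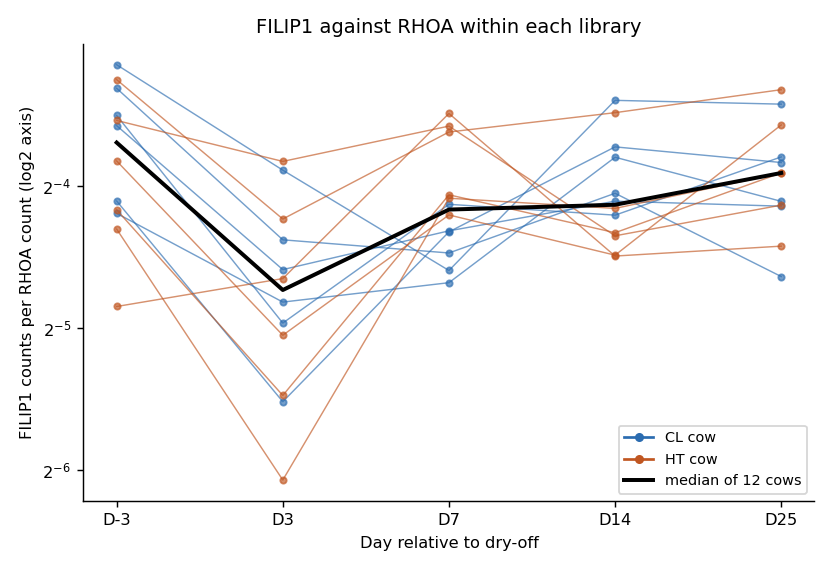
FILIP1 counts per RHOA count within each library (vertical axis, log2 scale) on the 5 sampling days, with 1 line per cow (blue CL, orange HT) and the median of 12 cows in black. The median went from 0.0768 at D-3 to 0.0375 at D3 and stood at 0.0664 at D25.

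Over all 60 samples RHOA, ACTG1 and ILK varied together and FILIP1 varied apart from them. Pearson's r of log2 CPM was 0.714 between RHOA and ILK, 0.692 between RHOA and ACTG1 and 0.621 between ACTG1 and ILK, and with the day means taken out it was 0.655, 0.579 and 0.618. FILIP1 had r between -0.228 and -0.0891 with the other three, and between -0.0146 and 0.0914 with the day means taken out. These are descriptions over samples that share cows, days and scaling factors. The likeness of samples from 1 cow was estimated by an intraclass correlation, about the mean of each treatment and day. It was 0.357 for FILIP1 (0.423 with cows 8513 and 8660 exchanged at D14 and D25), against 0.161 for RHOA, 0.183 for ILK and -0.000669 for ACTG1. Among the 3006 other tested loci with a symbol, the courses most like RHOA were those of ARL6IP5 (r = 0.876), AP2B1 (0.873) and CAP1 (0.871), and those most like ACTG1 were ACTB (0.879), WDR1 (0.875) and a locus joining GDPD3 and MAPK3 (0.870). For ILK they were a locus joining KRTCAP3 and NRBP1 (0.911), FIS1 (0.908) and JOSD1 (0.893). For FILIP1 they were FHL5 (0.774), EBF1 (0.756) and EMCN (0.742), with lower values than for the other three.

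Milk gene share at D-3 was set against the members' levels across the 12 cows. For ACTG1 at D-3, Pearson's r with log2 share was -0.65 (permutation p = 0.0263, adjusted p = 0.105 over 4 genes) and Spearman's rho was -0.58 (permutation p = 0.0526), and r was -0.59 without the 2 cows farthest from the median share. The r of the other members was 0.24 for RHOA, 0.54 for ILK and 0.18 for FILIP1 (permutation p = 0.460, 0.0669 and 0.562), with rho of 0.48, 0.57 and 0.26 (permutation p = 0.114, 0.0586 and 0.417). The change of ACTG1 from D-3 to D3 had r = 0.66 with the share at D-3 (permutation p = 0.0175, adjusted p = 0.0701 over 4 genes; rho = 0.64, permutation p = 0.0294; r = 0.66 without the same 2 cows), and the changes of the other three had r between -0.03 and 0.40 (permutation p from 0.199 to 0.937). None passed after adjustment. On library size alone the levels of all 4 had r between -0.899 and -0.775. On that scale counts on milk loci lower the CPM of every other locus, so these r do not single out the 4 genes.

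Heat stress was compared with cooling at each day, the question for which the study had HT and CL cows. In edgeR with trended dispersions no locus was called at any of the 5 days at an FDR of at most 0.05. In that fit the loci with an unadjusted p under 0.05 numbered 297, 97, 678, 248 and 331 in the order of the days. With tagwise dispersions, which the study's methods name, edgeR called 1 locus at D-3, 7 at D7 and 1 at D25. DESeq2 called 3 at D7 and 1 at D25. Without a called locus in the first fit, the members are given by their values. At D7, FILIP1 in CL cows was 16.4 CPM at the lowest, 20.04 at the median and 24.9 at the highest, and in HT cows 25.0, 30.5 and 38.1 CPM. All 6 HT cows thus lay above all 6 CL cows, the nearest pair 24.9 and 25.0 CPM apart by less than the error of counting. The difference was 0.61 (SE 0.13, 1.53-fold, p = 3.65e-04, FDR = 0.959, edgeR), with an exact permutation p of 0.00216, the smallest that splits of 6 and 6 cows allow. DESeq2 gave an adjusted p of 0.0529 and edgeR with tagwise dispersions an FDR of 0.0419. By the study's less stringent rule (unadjusted p up to 0.005, log2 fold change of 0.5 or more either way), FILIP1 was 1 of 50 loci at D7 (0.34% of loci) in the fit with trended dispersions. The rule was met by 160 loci with tagwise dispersions and by 114 in DESeq2, and the study listed more than 50 from its own fit. ILK at D7 ran from 64.9 over 68.5 to 71.8 CPM in CL cows and from 72.2 over 84.9 to 95.7 CPM in HT cows, again with no overlap and with 71.8 and 72.2 CPM as the nearest pair. Its difference was 0.30 (SE 0.09, p = 0.00374, FDR = 0.959, edgeR; exact permutation p = 0.00216). HT cows lay above all CL cows for 0.0816% of loci at D7 (12 loci), of which FILIP1 and ILK were 2. That share is no larger than random splits of 6 and 6 cows would give on average. By this count the separation of FILIP1 and ILK does not stand out from chance.

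That separation at D7 depended on the scale. The TMM factors of the HT samples at D7 ran from 0.878 to 1.17 and those of the CL samples from 1.09 to 1.19, and on library size alone the median log2 difference of all loci was -0.141. There FILIP1 differed by 0.47 (exact permutation p = 0.00649) and ILK by 0.15 (exact p = 0.136), each with 4 of 6 HT cows above all CL cows. The FILIP1 to RHOA count ratio was higher in HT cows by 0.58 (log2, exact p = 0.00433, adjusted p = 0.173 over 40 tests), with 5 of 6 HT cows above all CL cows, and the ILK to RHOA ratio by 0.26 (exact p = 0.123). Against ILK the FILIP1 ratio was higher in HT cows by 0.32 (exact p = 0.0584) and against FLNA by 0.21 (exact p = 0.478), each with 2 of 6 HT cows above all CL cows. Summed myoepithelial and smooth muscle markers (7 of 12 measured) were 1203 to 2168 CPM in CL and 1794 to 3127 CPM in HT cows at D7, and the endothelial marker KDR was 90.5 to 121 CPM in CL and 109 to 157 CPM in HT cows. For CL and HT in turn, milk genes were 535 to 18009 and 57.3 to 165348 CPM (medians 2179 and 27649). Luminal keratins were 507 to 1113 and 847 to 1320 CPM, and adipocyte genes 27.4 to 188 and 68.9 to 197 CPM. The fibroblast gene DCN was 633 to 1625 and 934 to 1380 CPM, and skeletal muscle genes 0.383 to 1.36 and 0.751 to 1.78 CPM. All of these ranges overlapped. The part of these cell types in the differences of FILIP1 and ILK was not tested.

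On the other days HT and CL overlapped for every member. FILIP1 differed by -0.16 at D-3, by -0.02 at D3, by -0.36 at D14 and by 0.14 at D25 (unadjusted p from 0.194 to 0.920, edgeR), and ILK by 0.29, 0.04, 0.05 and 0.06 (p from 0.221 to 0.890). RHOA lay within 0.22 of no difference on all 5 days, its largest difference at D-3, before the treatments (SE 0.16, exact permutation p = 0.0779). ACTG1 differed by 0.32, -0.26, 0.12, 0.12 and -0.04 on the days in turn (exact p from 0.273 to 0.654). With SEs of 0.11 to 0.33 for these genes, differences of that size were not detectable with 6 cows a group. Among the 40 tests of count ratios, HT minus CL (log2) was 0.27 for ILK to ACTG1 at D3 (exact p = 0.00866, adjusted p = 0.173). It was -0.38 for FILIP1 to ILK at D14 (exact p = 0.0368, adjusted p = 0.468).

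The course of FILIP1 after D3 was then compared between the treatments. From D3 to D7 it was higher in 6 of 6 HT cows (mean 0.64) and in 4 of 6 CL cows (mean -0.06), a difference of 0.70 (exact permutation of cows p = 0.00433, adjusted p = 0.104 over 24 tests). From D7 to D14 it was lower in 5 of 6 HT cows (mean -0.26) and higher in 6 of 6 CL cows (mean 0.66), a difference of -0.92 (exact p = 0.0108, adjusted p = 0.130), which was -0.68 without cow 7965 (exact p = 0.0195). Both rest on the same D7 samples, and neither passed after adjustment. On library size alone they were 0.57 (exact p = 0.106) and -0.76 (exact p = 0.0152). edgeR's test of the treatment by time interaction gave FILIP1 an unadjusted p of 0.0532, of 0.0101 with the cow as a block and of 0.238 without cow 7965, and called 0 of 14714 loci (85 with p under 0.05). The changes of RHOA, ACTG1 and ILK had exact p from 0.184 to 0.987 for a difference between HT and CL.

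**Figure D4:**
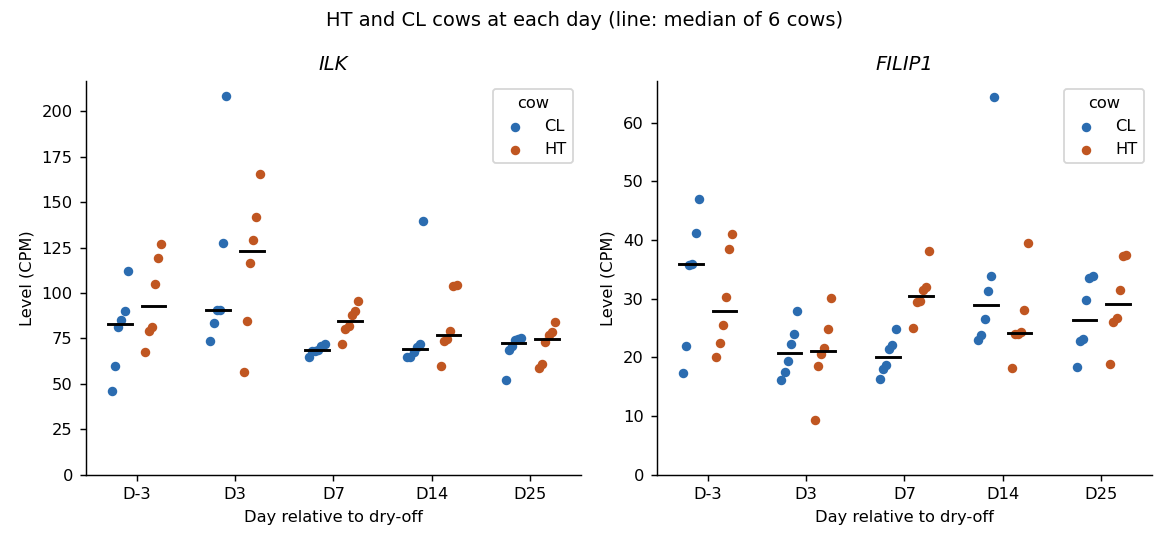
Levels of ILK (left) and FILIP1 (right) in CPM in the 6 CL cows (blue) and 6 HT cows (orange) on the 5 sampling days, with the median of each group as a black line. At D7 the HT cows lay above the CL cows for both genes (72.2 to 95.7 against 64.9 to 71.8 CPM for ILK, 25.0 to 38.1 against 16.4 to 24.9 CPM for FILIP1), and on the other days the groups overlapped.

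The pathway around the 4 genes was read from 9 lists of actin, small GTPase and adhesion genes. Of 163 other genes listed, 68 could be matched to a tested locus. The symbols came from tables held only in part, which list loci in order of the study's own p-values, so that the matched genes lean toward those that changed. The shares of all loci beside them are therefore not a like background, and shares among the loci with a symbol are not given. From D-3 to D3, 40 of the 68 rose and 4 fell, with a median log2 change of 0.48 (all loci: 6.03% rose, 9.04% fell, median -0.01). From D3 to D7, 0 rose and 19 fell, with a median of -0.39 (all loci: 0.625% rose, 2.3% fell, median 0.00). Of the 68, 8 had a positive change on this step, and with the cow as a block 2 rose and 24 fell. On library size alone 57 rose and 1 fell from D-3 to D3, and 2 fell from D3 to D7. By D25, 1 of the 68 was higher and 6 were lower than at D-3.

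All 10 matched actins and monomer-binding genes rose at D3, and 3 fell again at D7. CAP1, which recycles actin monomers, rose by 0.71 (SE 0.11, FDR = 1.81e-05) and fell by 0.60 from D3 to D7 (FDR = 0.00130). DSTN, the actin-severing protein destrin, rose by 0.61 (FDR = 0.00493) and fell by 0.91 (FDR = 5.87e-04). Among genes that bundle, cap or coat filaments, 10 of 13 rose at D3 and 7 fell at D7: tropomyosin TPM4 rose by 1.06 (SE 0.22, FDR = 5.05e-04), while calponin CNN1, a marker of myoepithelium and smooth muscle, rose by 1.10 (SE 0.39, FDR = 0.0435) and fell by 1.74 (FDR = 0.0110). Of 7 genes of the Arp2/3 complex, which starts branched filaments, and of its activators, 4 rose at D3, among them the subunit ARPC5 by 0.45 (SE 0.09, FDR = 4.77e-04), and 0 were called at D7 (all values edgeR).

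The small GTPases related to RHOA were divided. RAC1, which drives lamellipodia, rose by 0.64 (SE 0.11, FDR = 7.78e-05, edgeR) and fell by 0.53 at D7 (FDR = 0.00671), and RHOD rose by 0.83 (FDR = 0.0152), while RHOF fell by 1.68 (SE 0.29, FDR = 6.07e-05) and RHOU by 1.08 (SE 0.28, FDR = 0.00477) at D3. In all, 5 of 9 rose and 2 fell at D3, and 3 fell at D7, RHOB by 0.78 among them (FDR = 0.0484). RHOA itself stood at 4.06 counts per RAC1 count in the median cow at D-3 and 3.61 at D3 (change -0.19 ± 0.21 within cows, exact p = 0.0142, adjusted p = 0.0566). Of the 8 matched activators and inhibitors of RHOA, 0 rose and 1 fell at D3, GNA12 by 0.81 (SE 0.24, FDR = 0.0140), and ARHGAP10 fell by 0.31 at D7 (FDR = 0.0394). ECT2 and RACGAP1 of the same list went the other way without being called. Their means went from 10.7 CPM at D3 to 20.5 at D7 for ECT2, and from 23.3 to 38.6 for RACGAP1.

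Downstream of RHOA, 4 of 9 effectors and myosin genes rose at D3 and 4 fell at D7. The effectors CIT and DIAPH3 had higher means at D7 than at D3 without being called. They went from 18.8 to 29.9 CPM (CIT) and from 6.13 to 11.2 CPM (DIAPH3). The nonmuscle myosin heavy chain MYH14 rose by 1.12 (SE 0.25, FDR = 0.00132, edgeR) and fell by 0.90 (FDR = 0.0321), and the regulatory light chain MYL12A rose by 0.53 (SE 0.10, FDR = 3.15e-04) and fell by 0.52 (FDR = 0.00329). MRTFB, a coactivator of SRF that senses free actin, rose by 0.67 (SE 0.12, FDR = 1.53e-04) and fell by 0.43 (FDR = 0.0419). Around ILK, 6 of 9 adhesion genes rose at D3 and 1 fell, and 0 were called at D7. Zyxin (ZYX) rose by 0.74 (SE 0.19, FDR = 0.00527), RSU1, a partner of PINCH, by 0.44 (FDR = 0.0112), and PARVA, the alpha-parvin that binds ILK, by 0.32 (FDR = 0.0176), while talin 2 (TLN2) fell by 0.73 (FDR = 0.0101). From D3 to D7 their means went, uncalled, from 218 to 145 CPM (ZYX), 81.6 to 62.2 (RSU1), 66.0 to 60.8 (PARVA) and 41.5 to 53.5 (TLN2). LIMS2, a PINCH protein, stood at 0.34 at D3 (FDR = 0.407). Filamin A (FLNA), the partner of FILIP1, stood at 0.48 (SE 0.21, FDR = 0.108) and was not called on either step.

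**Figure D5:**
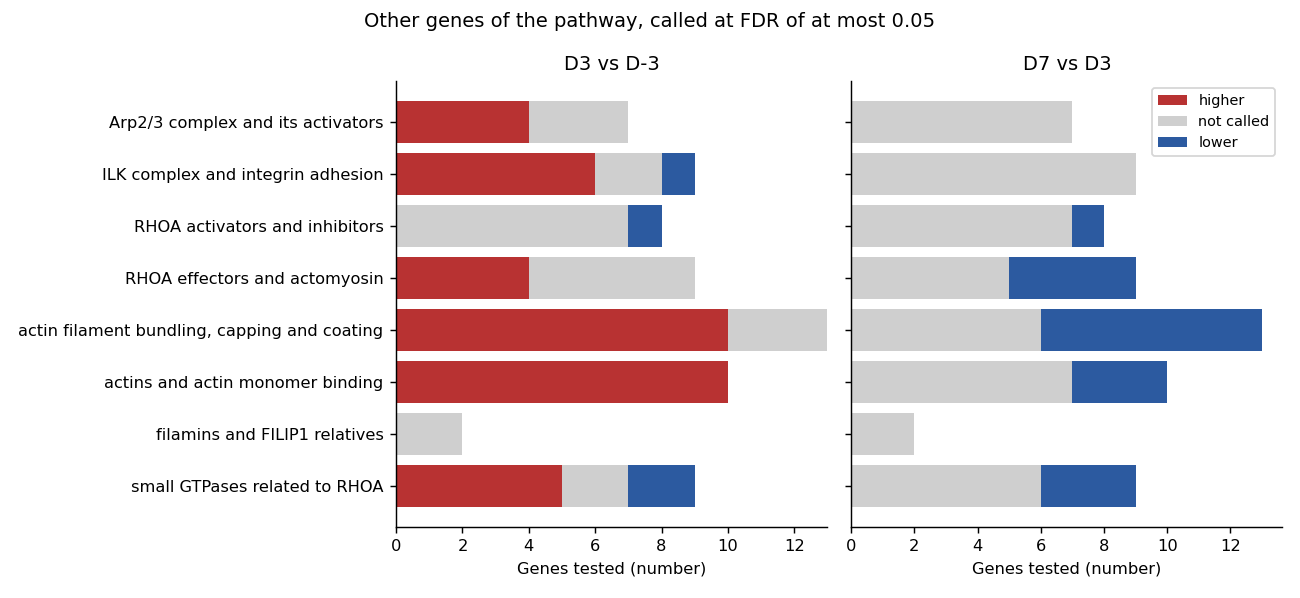
Number of tested genes in 8 of the lists (horizontal axis) that were higher (red), not called (grey) or lower (blue) at an FDR of at most 0.05, for D3 vs. D-3 (left) and D7 vs. D3 (right), without the 4 members. In the list of actins and monomer-binding genes 10 of 10 were higher at D3 and 3 were lower at D7. Genes were matched through tables ordered by the study's p-values, which favours those that changed.

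Markers of cell types moved on the same days. The summed level of 7 measured myoepithelial and smooth muscle genes (KRT5, ACTA2, TAGLN, CNN1, MYLK, MYL9 and MYH11, of 12 listed) had a median of 2139 CPM at D-3 (range 743 to 4427), 3479 CPM at D3 (1503 to 5659) and 1827 CPM at D7 (1203 to 3127), and the luminal keratins KRT7 and KRT19 (2 of 8 listed) had medians of 1088, 1579 and 935 CPM. Both medians rose to D3 and fell to D7, as did those of RHOA, ACTG1 and ILK. At D7 both lay under their level at D-3, as ILK did (72.0 against 83.2 CPM). The RHOA median was level with D-3 (431.2 against 430.5 CPM), and that of ACTG1 was higher (1607 against 1387 CPM). The endothelial marker KDR (1 of 6) had medians of 130, 91.8 and 113 CPM and the adipocyte genes ADIPOQ and FABP4 (2 of 6) of 152, 59.7 and 91.7 CPM, in the order of FILIP1. The fibroblast gene DCN (1 of 7) had medians of 672, 702 and 1025 CPM, skeletal muscle genes (2 of 8) stayed at or under 16.7 CPM in every sample, and 0 of 11 leukocyte markers could be matched. The part of these cell types in the changes of the 4 genes was not tested.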

How the data were processed

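The authors sequenced poly(A) RNA of 60 mammary biopsies with a kit that does not mark strand, trimmed reads with Trim Galore 0.4.1, mapped them with TopHat2 2.0.13, merged assembled transcripts (Cufflinks 2.2.1) with the ENSEMBL annotation and counted reads with HTSeq. The labels name the UMD3.1 build and the methods bosTau7, so no position is given. The deposited values are whole-number counts per locus, without normalization, and a read from an overlapping antisense gene cannot be told apart from the gene's own.

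From these counts, loci reaching 1 CPM in 6 or more samples were tested with edgeR 4.0.16 (R 4.3.3): TMM factors, trended dispersions, quasi-likelihood F-tests and Benjamini-Hochberg FDR over 14714 loci. The study's methods name TMM, tagwise dispersions and quasi-likelihood F-tests for treatment, time and their interaction, and no cow term. Here dispersions were trended, days were compared in a fit of all 60 samples with neither treatment nor cow as a term, and HT with CL in the 12 samples of a day. CPM are TMM-scaled. Single genes were tested on log2 CPM (prior count 2) by two-sided exact sign-flip tests within cows (4096 sign sets) and two-sided exact permutation of cows, and count ratios in the same way. Milk relations used two-sided permutation tests. The self-test of the fits ran on simulated counts.

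The cow is the replicate and pairs the samples by its label. Deviations from day and treatment means correlated at a mean r of 0.293 for 120 pairs from 1 cow and -0.0253 for 1320 pairs from different cows on different days.

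Members and lists were chosen with earlier results of these data known. Genes named beside the 4 members were, for each list and each of the first 2 steps in time, up to 2 with the smallest p in each direction, and ACTB, RHOB, RAC1, LIMS2, PARVA and FLNA in any case (RHOC, CDC42, LIMS1, PARVB, ROCK1, ROCK2, FILIP1L and SRF were not matched to a symbol). Not every gene that met the rule is described. Of 25223 loci, 3033 had a symbol. No sequence table was used. A gene that met the naming rule is not reported here. Alternatives were RLE factors, library size only, TMM without 3 milk loci, DESeq2 1.42.0, tagwise dispersions, 2 filters, the cow as a block, other sample sets and each cow left out. The 3 milk loci were CSN1S1, CSN2 and LALBA, while CSN1S2, CSN3 and PAEP were not matched to a symbol and so were not left out. Added after seeing the data were count ratios, library size in the exact tests, the study's less stringent rule, the change of milk relations and the comparison of within-cow changes between HT and CL. Exact tests ran in Python 3.11.15 (scipy 1.17.1, pandas 2.3.3, numpy 2.4.6) and figures were drawn with matplotlib 3.10.9.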

Additional observations from a re-analysis of the deposited data

Results flagged for a closer look

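In 4 of 40 groups of 6 cows (a gene, a treatment and a day) the highest or lowest cow was far from the rest, its gap to the next cow exceeding 0.625 of the range on the log2 scale, where chance gives about 1 group in 20. ACTG1 in CL cow 7965 at D7 stood at 1903 CPM, and the next cow at 1655 CPM. ILK in CL cow 7965 at D14 stood at 140 CPM, above the next cow's 71.9 CPM, and FILIP1 in the same sample at 64.3 CPM, above 33.8 CPM. That sample is the one that stood apart over all loci, with luminal keratins at 6.19 CPM, the fibroblast gene DCN at 5393 CPM (561 to 1558 CPM in the other 11 cows) and KDR at 354 CPM (97.1 to 159 CPM). ILK in CL cow 8647 at D25 was low, at 52.0 CPM, with the next cow at 68.4 CPM.

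The within-cow change of FILIP1 differed between HT and CL in 3 of 24 comparisons at an unadjusted exact permutation p of at most 0.05, and in none after adjustment. HT minus CL was 0.70 for D7 vs. D3 (p = 0.00433, exact), -0.92 for D14 vs. D7 (p = 0.0108, exact) and 0.74 for D7 vs. D-3 (p = 0.0195, exact), with adjusted p of 0.104, 0.130 and 0.156. The 3 comparisons share the D7 samples.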

How the results depend on the processing

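The RHOA and ACTG1 rises from D-3 to D3 were called under each normalization, filter and tool, with the cow as a replicate block and without any 1 cow. They were lost in the fits of 6 cows, RHOA with CL cows only (0.50) and HT cows only (0.38) and ACTG1 with HT cows only (0.54), which hold fewer samples by construction. ILK from D-3 to D3 was called on library size only (0.80), with the cow as a replicate block (0.37, FDR = 0.0374, and 0.37 with cows 8513 and 8660 exchanged), and ranged from 0.26 to 0.45 without each cow. FILIP1 from D-3 to D3 was lost on library size only (-0.16), with the samples of the 2 days only (-0.58), with CL cows only (-0.64) and HT cows only (-0.51), and ranged from -0.62 to -0.52 without each cow.

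From D3 to D7 the calls were lost on library size only (RHOA -0.28, ACTG1 -0.43, ILK -0.45), with the samples of the 2 days only (RHOA -0.40, ACTG1 -0.57, ILK -0.57), with CL cows only (-0.38, -0.76 and -0.71 for RHOA, ACTG1 and ILK) and with HT cows only (-0.42, -0.37 and -0.45), and for ACTG1 without a filter (-0.58, FDR = 0.0509). Without each cow in turn RHOA ranged from -0.44 to -0.35, ACTG1 from -0.64 to -0.41 and ILK from -0.63 to -0.46. On library size only RHOA changed sign for D25 vs. D-3 (0.51, and 0.71 within cows), as did ILK within cows for D7 vs. D-3 (0.49) and D25 vs. D-3 (0.44) and FILIP1 within cows for D3 vs. D-3 (0.00301), and the within-cow changes from D-3 to D7 became 0.69 for RHOA and 0.95 for ACTG1. On that scale ILK at D7 was no longer past the exact test between HT and CL (0.15), and the r with milk gene share at D-3 was -0.893 for RHOA, -0.899 for ACTG1, -0.819 for ILK and -0.775 for FILIP1, and 0.820 for FILIP1's change to D3. Counts on milk loci there lower the CPM of every other locus, so these r do not single out the members. The HT vs. CL difference of FILIP1 at D7 (0.61) was called with tagwise dispersions only. A sign that differed where neither value was called occurred in 52 of 1044 alternative values of the members' log2 fold changes.

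Counts of called loci moved most. For D3 vs. D-3 they were 580 with CL cows only, 15 with HT cows only, 824 with the 2 days only, 3331 with the block and exchanged labels, and 1228 to 2509 without each cow, against 2217. For D7 vs. D3 they were 1 and 0 for CL and HT cows only, 36 on library size only, 648 with tagwise dispersions, 716 by DESeq2, 881 with the replicate block, 1022 with the block and exchanged labels, and 52 to 610 without each cow, against 430. For D7 vs. D-3 they were 369 and 0 for CL and HT cows only, 0 with the 2 days only, 23 on library size only, 1950 with the replicate block, 2174 with exchanged labels and 303 to 1911 without each cow. For D25 vs. D-3 they were 236 and 0 for CL and HT cows only, 921 with the 2 days only, 6037 on library size only, 3003 with the replicate block, 3228 with exchanged labels and 865 to 2146 without each cow. For D25 vs. D14 (9 loci) they were 4 by DESeq2 and on library size only, 26 without a filter, 30 with tagwise dispersions, 0 to 11 without each cow, and 0 with CL or HT cows only, either block, the 2 days only, treatment as a covariate and without the D14 sample of cow 7965. Tagwise dispersions called 10 loci for D14 vs. D7 and, for HT vs. CL, 1 at D-3, 7 at D7 and 1 at D25, and DESeq2 3 at D7 and 1 at D25. The replicate block changed no call of a member other than ILK. The cause of these moves was not tested. FILIP1 had the smallest counts of the 4 genes, from 188 to 1341 per sample, and so the largest counting error.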
